A study of Homo sapiens with 8 samples.

Results

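SMC1A, a core subunit of the cohesin ring, was mapped by ChIP-seq in 2 libraries of untreated GM12878, a lymphoblastoid line grown from B lymphocytes. All peaks of the 2 deposited SMC1A lists on chromosomes 1 to 22 and X were taken, 56510 in replicate 1 and 68228 in replicate 2, of 224694 peaks in the 6 lists of the series. A region found in both replicates was a set of peaks that overlapped between the lists by at least 1 bp, and there were 51020 of these. The series also holds 2 libraries each of NIPBL, the factor that loads cohesin, and of MED1, a subunit of the Mediator complex. Crosslinking was with 1% formaldehyde for 10 min in all of them, and each ChIP library was set against the same pool of 2 whole cell extract libraries. No label says that the replicates came from separate cultures, so their spread may be technical, and no treatment, genotype or time was compared.

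Cohesin is a ring of SMC1A, SMC3, RAD21 and a STAG protein that holds DNA strands together. It keeps sister chromatids paired until mitosis, and in interphase it draws out chromatin loops. Loops are stopped mainly at sites bound by the zinc finger protein CTCF, where cohesin gathers into sharp peaks in most mammalian cells, and weaker cohesin signal is also known at enhancers and promoters. CTCF was not part of the series, and SMC1A stands here for the ring only as far as its antibody does.

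SMC1A peaks fell into a weak and a strong group, a shape that none of the other 4 lists had. Fold enrichment, the authors' linear ratio of signal at the summit to a local control estimate, had 2 density maxima in each SMC1A list. They stood at 4.48 and 15.7 in replicate 1 and at 4.34 and 18.0 in replicate 2. In each NIPBL and MED1 list the same kernel density, with a bandwidth of 0.2 log2 units, had 1 maximum, between 3.60 and 4.23. The median fold of the SMC1A libraries was 8.61 and 7.53, against 3.88 and 4.08 for NIPBL and 3.81 and 4.82 for MED1. The mean of library medians was 8.07 ± 0.769 (SD, n = 2) for SMC1A and 4.15 ± 0.462 (SD, n = 4) for the others, a difference of 3.92. SMC1A lay higher in 2 of 2 libraries, but 2 libraries against 4 cannot pass the threshold (two-sided exact permutation p = 0.133, the smallest the design allows, adjusted p = 0.533 over 4 measures).

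**Figure D1:**
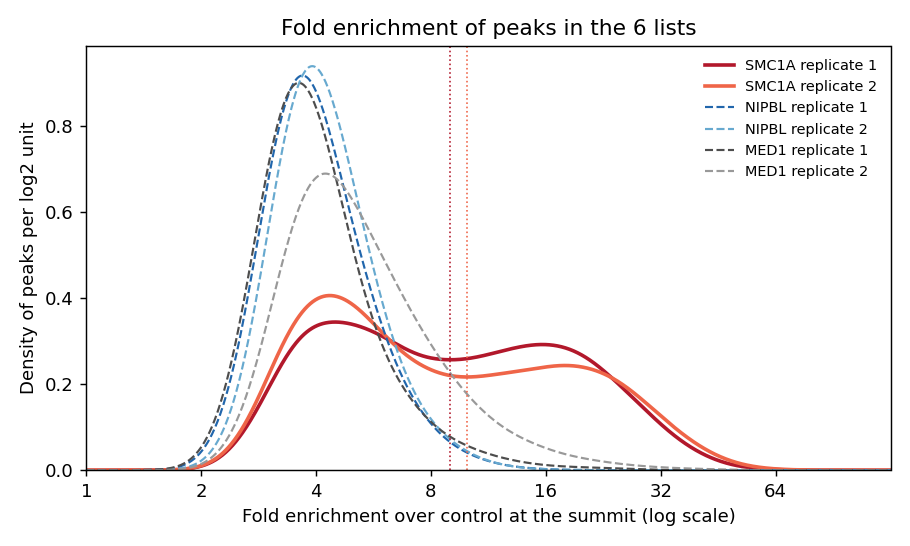
Density of peaks per log2 unit against fold enrichment (log axis) for the 6 lists, SMC1A as solid lines and NIPBL and MED1 as dashed lines. The SMC1A curves have maxima at 4.48 and 15.7 and at 4.34 and 18.0, and the dotted lines mark the lowest points between them, 8.99 and 9.94.

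The groups ran into each other. The lowest point between the maxima, which divided strong from weak peaks, lay at a fold of 8.99 in replicate 1 and 9.94 in replicate 2. Density there was still 87.9% and 89.0% of the lower of the 2 maxima, and 19.0% and 16.1% of peaks had a fold within 25% of the dividing value. On that division 27218 peaks of replicate 1 were strong (48.2%, exact Clopper-Pearson 95% interval 47.8 to 48.6) and 29292 were weak. Replicate 2 had 27981 strong peaks (41.0%, 40.6 to 41.4) and 40247 weak ones. The strong groups of the lists thus differed by 763 peaks in size, and the weak groups by 10955. All intervals cover counting error only. The 500 peaks just above the division had median widths of 332.5 bp in replicate 1 and 335.5 bp in replicate 2, against 315 and 329 bp for the 500 just below it. At the summit they had a median of 42 fragments in each list, against 33 and 36 just below.

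Fragment counts at the summits had the same shape. The number of fragments piled up at each summit was solved from the fold and the p-value of the peak. It had maxima at 21.9 and 96.4 fragments in replicate 1 and at 21.4 and 108 in replicate 2. The dip between them was shallower than that of the fold, at 94.2% and 95.4% of the lower maximum. Strong peaks had a median of 86 fragments in replicate 1 and 95 in replicate 2, against 22 in the weak peaks of each. The control estimate was close in the 2 groups, with medians of 3.86 and 3.90 at strong peaks and 4.23 and 4.18 at weak ones. Summits held at most 338 and 364 fragments and at least 8 and 7, and binding below that was not detectable. These are the smallest counts listed. The count needed for a call depends on the local control estimate, so the floor was higher where that estimate was high.

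Strong SMC1A peaks recurred almost without exception, and weak ones made up nearly all of what the replicates did not share. Of the strong peaks of replicate 1, 27213 of 27218 overlapped a peak of replicate 2 (99.98%, 99.96 to 99.99), and of those of replicate 2, 27954 of 27981 overlapped replicate 1 (99.9%, 99.86 to 99.94). Weak peaks recurred in 84.6% of replicate 1 (84.2 to 85.0) and 58.7% of replicate 2 (58.3 to 59.2). The missing peaks thus comprised 5 strong and 4519 weak ones in replicate 1, and 27 strong and 16605 weak ones in replicate 2. Below a fold of 3, 73.5% of replicate 1 peaks and 25.9% of replicate 2 peaks were found in the other list. Between 8 and 10 these shares were 99.5% and 96.8%. From a fold of 15 upwards every peak was found, 15947 in replicate 1 and 19006 in replicate 2.

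Peaks present in 1 list were small in fragments as well as in fold. They had a median fold of 3.99 in replicate 1 and 3.98 in replicate 2, with 17 and 18 fragments at the summit. The minimum width of 200 bp was held by 17.1% and 10.8% of them, against 1.96% and 0.864% of the peaks that recurred. The strongest peak that replicate 2 lacked lay on chromosome 19 from 21439539 to 21439852, with a fold of 10.8 and 30 fragments. The strongest that replicate 1 lacked lay on chromosome 16 from 89502108 to 89502454, with a fold of 12.3 and 33 fragments. Both rested on control estimates close to the lowest in their lists, 1.88 and 1.76. Positions count from 1 on hg19 and carry no gene names, because no annotation for that build was used. The next named peaks without a counterpart lay on chromosomes 5 (from 175433121) and 12 (from 129671538) in replicate 1, and on chromosomes 11 (from 131374090) and 6 (from 125080578) in replicate 2, with folds of 9.33 to 11.9.

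**Figure D2:**
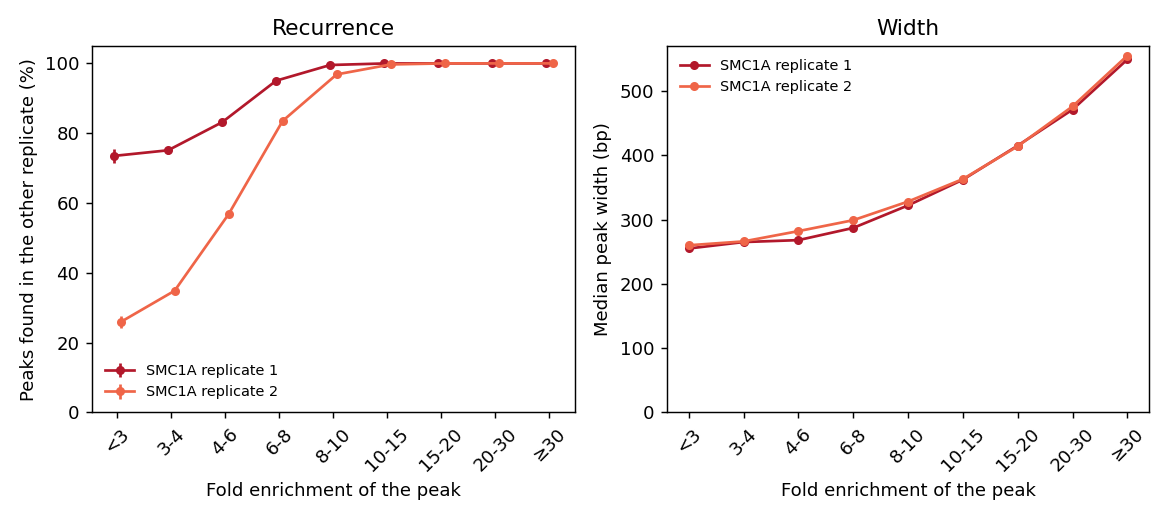
Share of SMC1A peaks found in the other replicate (left, %, bars are exact 95% intervals) and median peak width (right, bp) by fold enrichment of the peak, for both SMC1A lists. Recurrence of replicate 2 peaks climbs from 25.9% below a fold of 3 to 96.8% between 8 and 10, and the widths of the 2 lists run together.

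Of the 51020 regions found in both replicates, 92.6% fell in the same group in both lists. The strongest peak of the region was strong in both lists at 25659 regions (50.3%, 49.9 to 50.7) and weak in both at 21591 (42.3%, 41.9 to 42.7). The remaining 3770 regions, 7.39%, were strong in 1 list and weak in the other, and 98.4% of them had a fold within 25% of the dividing value in at least 1 list. Such regions lie on opposite sides of the dividing values, so a fold near them is likely by construction. Whether other dividing values would give a like agreement was not tested here. Regions strong in both had a median fold of 17.0 in replicate 1 and 19.3 in replicate 2, and regions weak in both had 4.96 and 5.57.

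At regions of the same group in both lists, replicate 2 read higher than replicate 1 by a like median factor. The median ratio of fold, replicate 2 over replicate 1, was 1.12 at regions strong in both and 1.12 at regions weak in both. It exceeded 1 at 80.4% of the strong and 69.4% of the weak regions. Over all 51020 regions the median ratio was 1.13, but it was 0.850 at regions strong in replicate 1 only and 1.47 at those strong in replicate 2 only. Over the full lists replicate 2 did not read higher, with a median fold of 7.53 against 8.61 in replicate 1. The scatter of the ratio was narrower for strong regions, with an SD of the log2 ratio of 0.219 against 0.347. Across the 51020 regions the log2 fold of the replicates had Pearson r = 0.954 and Spearman rho = 0.956, a description over regions that share libraries, with r = 0.916 within the strong and 0.717 within the weak regions. The 2 lists shared their control pool, and the log2 control estimates had r = 0.965, so counting error of the control is common to both and is not seen in this scatter. Fragment pileups, which do not use the control, had r = 0.967 on the log2 scale. The lowest control estimate, which scales with depth at equal fragment length, was 1.79 and 1.76, so replicate 2 was 0.987 times as deep as replicate 1 while it gave the longer list.

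**Figure D3:**
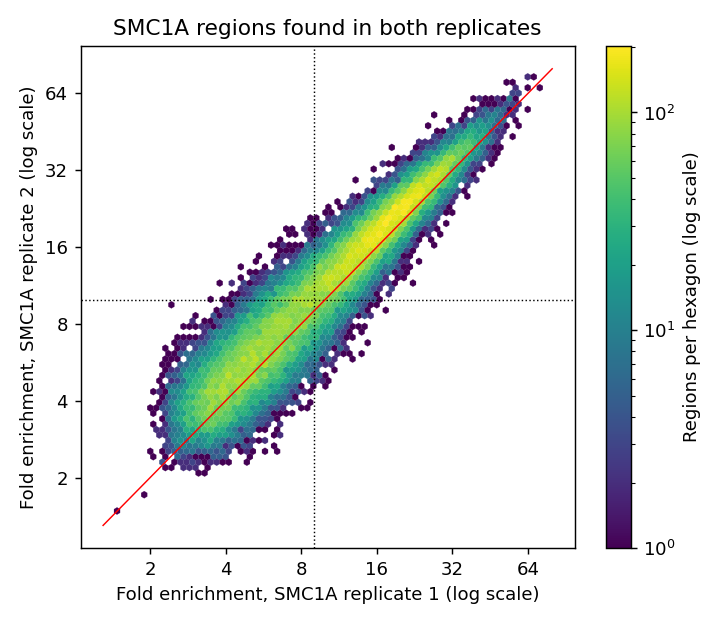
Fold enrichment in SMC1A replicate 2 against replicate 1 at the 51020 regions found in both (log axes, colour is the number of regions per hexagon), with the line of equal values in red and the dividing folds of 8.99 and 9.94 dotted. Most regions lie above the red line, and the cloud is narrower in the strong group, where the SD of the log2 ratio was 0.219 against 0.347 in the weak group.

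SMC1A peaks were narrow, and width followed strength mainly among strong peaks. Median width was 348 bp in replicate 1 and 354 bp in replicate 2, with quartiles of 273 and 445 bp and of 272 and 463 bp. Strong peaks had medians of 409 and 428 bp, and weak peaks of 278 and 289 bp. Width and fold had Spearman rho of 0.545 and 0.529 across the strong peaks and 0.169 and 0.227 across the weak peaks, as a description of values read from the same signal. Peaks wider than 1000 bp made up 1.28% and 1.82% of the SMC1A lists, against 3.17% and 1.48% of the NIPBL lists and 5.79% and 12.2% of the MED1 lists. Median widths averaged 351 ± 4.24 bp (SD, n = 2) in SMC1A libraries and 349.5 ± 48.0 bp (SD, n = 4) in the others, a difference of 1.5 bp, less than the spread between libraries (two-sided exact permutation p = 0.800, adjusted p = 0.800).

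Merged regions found in both replicates had a median width of 415 bp, 465 bp where strong in both and 353 bp where weak in both. Merged width was lowest at intermediate folds, unlike the width of single peaks, which had its lowest medians, 255 and 260 bp, below a fold of 3 and its highest, 549 and 555 bp, from 30 upwards. The 2 widths are unlike measures, since a merged region spans the peaks of both lists. Single peaks also include those present in 1 list, with median widths of 230 and 250 bp. The part of merging in this contrast was not tested. Regions with a geometric mean fold of 3 to 4 had a median width of 410 bp, those of 6 to 8 had 323 bp, and those of 30 or more had 635.5 bp. The weakest regions were also those that most often overlapped the other factors, with a MED1 region at 57.0% of those with a fold of 3 to 4, at 16.3% of those of 6 to 8 and at 4.97% of those of 30 or more. The median control estimate of replicate 1 in these 3 bins was 5.64, 2.82 and 3.57, so a low fold went with a high control. The part of the control in these overlaps was not tested. Over the groups, MED1 was met by 4.97% of regions strong in both (4.71 to 5.25) and 33.9% of regions weak in both (33.3 to 34.5), and NIPBL by 6.17% (5.88 to 6.47) and 25.6% (25.0 to 26.2). NIPBL returned at the top of the range, from 3.41% of regions with a fold of 10 to 15 to 13.3% of those of 30 or more. Regions that held neither factor were strong in both at 58.0% of 40432, and weak in both at 33.6%. Of all 51020 regions, 79.2% met neither (78.9 to 79.6). In the strong group 23435 of 25659 regions met neither (91.3%, 90.98 to 91.7), and in the weak group 13572 of 21591 (62.9%, 62.2 to 63.5). These counts use NIPBL and MED1 regions found in both of their replicates. Their lists were shorter than those of SMC1A, with 21422 and 15357 peaks for NIPBL and 18131 and 45046 for MED1. A region that met neither thus lacked a call, and whether either factor was bound there below detection was not tested. Away from every peak of the NIPBL and MED1 lists, those called in 1 replicate included, lay 79.1% of the strong (78.6 to 79.6) and 49.3% of the weak regions (48.7 to 50.01), a count chosen after seeing the data. Over all regions this share was 66.9% (66.5 to 67.3).

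The 10 strongest SMC1A regions lay on 7 chromosomes, and all were single peaks in each list. The first, on chromosome 15 from 78487560 to 78488622, had folds of 67.7 and 74.4 with 226 and 246 fragments in replicates 1 and 2, and overlapped a NIPBL region but no MED1 region. The second, on chromosome 16 from 75267511 to 75268709, had folds of 64.2 and 73.1 and met neither factor. The third, on chromosome 15 from 22436013 to 22436602, was the only one of the 10 with the lower fold in replicate 2, at 71.4 and 68.7. Of the 10 regions 4 met NIPBL and 2 met MED1, where 14.3% and 17.5% of all 51020 regions did. Their control estimates ran from 1.76 to 3.29, below the medians of 4.14 and 4.09 over all peaks, so a low control went with their rank. Its part in the order was not tested. The other 7 lay on chromosomes 11, 16, 9, 20, 19, 16 and 17, with folds of 57.5 to 72.3.

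The widest regions held several peaks or 1 long one. The first, on chromosome 16 from 11344917 to 11350910, spanned 5994 bp, with 2 peaks of replicate 1 and 4 of replicate 2 and folds of 22.1 and 27.2 at its highest summits. The next 4, on chromosomes 10 (from 74032363 to 74037742), 3 (from 142837716 to 142842872), 1 (from 203274214 to 203278670) and 8 (from 128748225 to 128752034), were 3810 to 5380 bp wide, with folds of 12.05 to 32.4. All 5 were strong in both lists and overlapped both a NIPBL and a MED1 region, though such widths leave more room for an overlap than the median of 415 bp. Regions over 2000 bp numbered 104 of the 51020.

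Summits agreed closely between replicates. Among the 49713 regions with 1 peak in each list, the summits lay a median of 16 bp apart, with quartiles of 7 and 34 bp. Regions strong in both had a median of 11 bp and regions weak in both a median of 31 bp. A distance of at most 50 bp was found at 98.6% of the strong and 67.2% of the weak regions. The median was 60 bp at folds of 3 to 4, 14 bp at 10 to 15 and 9 bp at 30 or more. There was no lean to one side, since the replicate 2 summit lay to the right at 48.7% of regions, to the left at 48.6% and on the same base at 2.71%. Summits also stood near the centre of their peaks, within the central 50% of the width at 94.5% of replicate 1 and 93.2% of replicate 2 peaks.

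Few summits were far apart. A distance over 200 bp occurred at 791 regions, of which 763 were weak in both and 15 strong in both. The 3 strongest were wide regions, on chromosome 3 from 138634177 to 138635212 (530 bp apart, folds 29.5 and 35.3), on chromosome 17 from 46955116 to 46956907 (755 bp apart, folds 27.5 and 28.4) and on chromosome 20 from 47236949 to 47237959 (506 bp apart, folds 17.8 and 25.5). The remaining 1307 of the 51020 regions held more than 1 peak in at least 1 list. Replicate 1 had the larger number of peaks at 770 of these and replicate 2 at 414.

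**Figure D4:**
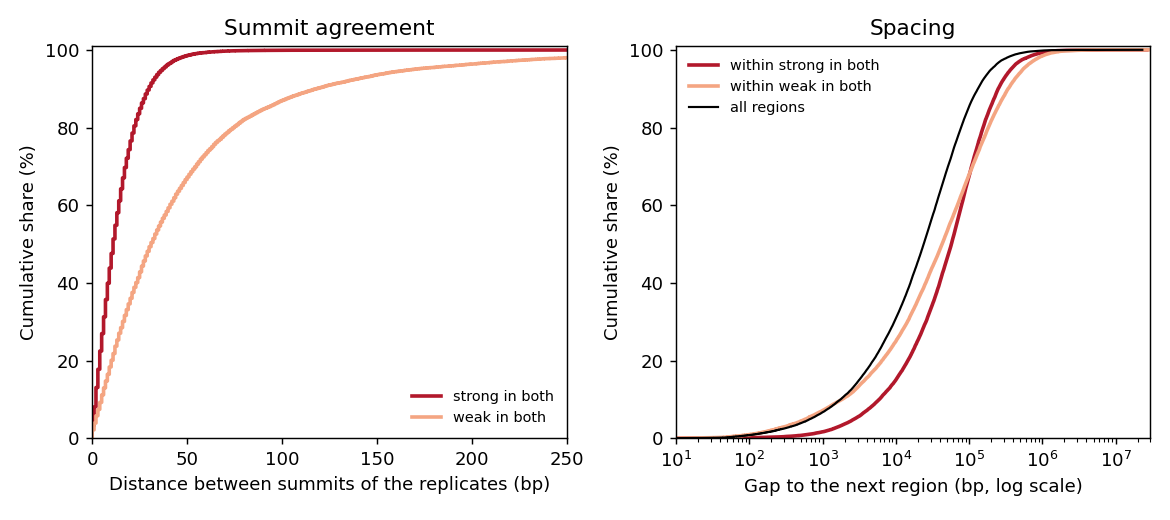
Cumulative share of SMC1A regions by distance between the summits of the replicates (left, bp, regions with 1 peak in each list) and by gap to the next region (right, bp, log axis), for regions strong in both and weak in both, with gaps over all regions in black. Summits lie a median of 11 bp apart in the strong group and 31 bp in the weak group, and within the groups the gaps have medians of 57368 and 42716 bp.

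SMC1A regions were spread widely, and pairs of weak regions were more frequent at short gaps than at long ones. The gap from one region to the next had a median of 24027 bp, with quartiles of 6969 and 62763 bp, and 6.69% of the 50997 gaps were under 1 kb. Peaks of the lists alone were closer, with medians of 20877 bp in replicate 1 and 15687 bp in replicate 2. Median peak spacing averaged 18282 ± 3670 bp (SD, n = 2) in SMC1A libraries and 15047 ± 6309 bp (SD, n = 4) in the others, which overlapped (two-sided exact permutation p = 0.667, adjusted p = 0.800). Spacing depends on the number of peaks in a list, which was 56510 and 68228 for SMC1A and 15357 to 45046 for the others. With all 6 lists cut to one length, SMC1A spacing was wider by 63166 bp (exact permutation p = 0.133, the smallest the design allows). With a −log10 q of at least 5 the difference was -911 bp (exact permutation p = 0.800). From one strong region to the next strong one the median gap was 57368 bp, and it was 42716 bp within the weak group. The upper quartiles ran the other way, at 128841 bp for strong and 141736 bp for weak regions. The weak group thus held both closer neighbours and longer stretches without a member. It also had fewer members, 21591 regions against 25659, and a longer mean gap, 135227 against 113812 bp. The part of this smaller number in the longer stretches was not tested.

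The makeup of neighbouring pairs changed with the gap. Among the 3414 pairs under 1 kb apart, 12.3% were strong in both lists on both sides and 44.96% weak on both sides. Pairs 10 to 50 kb apart were strong on both sides in 29.3% and weak in 20.9%. Above 100 kb the shares were 34.1% and 11.5%. Over all gaps they were 28.5% and 21.8%. A neighbour of any kind lay within 10 kb of 43.8% of strong and 57.0% of weak regions.

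Of the 50997 gaps, 97 were longer than 1 Mb. The longest was 23.2 Mb, on chromosome 1 from 121485441 to 144697565, and the next was 22.02 Mb, on chromosome 9 from 44436164 to 66457133. They were followed by 11.9 Mb on chromosome 16 (from 34666800 to 46588282), 6.32 Mb on chromosome 7 (from 56160900 to 62476025) and 5.46 Mb on chromosome 11 (from 50017463 to 55474302). Each of the 5 takes in the centromere of its chromosome. These gaps were not wholly empty, since SMC1A peaks called in 1 list lay in 3 of them, 1 peak in each. No NIPBL or MED1 list held more than 4 peaks in any of them. How much of each gap could be mapped was not tested.

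Density differed 2.90 times between chromosomes. It was counted per 1 Mb window that held a peak in any of the 6 lists, of which there were 2834. Chromosome 19 had most regions, 31.7 per window, followed by chromosomes 17 with 28.2 and 22 with 27.2. Chromosome X had fewest, 10.9, below chromosomes 4 with 12.8 and 13 with 13.3. The ratio of the densest to the sparsest chromosome was 2.97 in the list of replicate 1 alone and 3.31 in that of replicate 2. It was 2.82 for regions strong in both and 3.17 for regions weak in both. Chromosomes 19, 17 and 22 are rich in genes, and 4 and 13 are poor in them.

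The balance of strong and weak regions varied much less. Regions strong in both made up 43.2% to 55.6% of a chromosome's regions. The lowest share was on chromosome 21 (43.2%, 39.0 to 47.4), followed by chromosomes 6 (45.3%, 43.5 to 47.1) and 16 (45.6%, 43.2 to 48.0). The highest was on chromosome 11 (55.6%, 53.6 to 57.5), and then on chromosome X (53.9%, 51.4 to 56.3). Over the 23 chromosomes, density and the share of strong regions had Spearman rho = 0.0623, as a description. In each list alone the share of strong peaks on chromosome 21 was also the lowest of the 23, at 41.0% and 32.9%.

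Chromosome X stood apart in the level of its strong regions as well as in density. Its strong regions had a median of 69 and 78 fragments at the summit in replicates 1 and 2, against 91 and 102 on the autosomes. The control estimate was lower there too, with medians of 3.29 and 3.25 at X regions against 4.23 and 4.18 on the autosomes. The fold, in which both enter, was 15.7 and 17.7 for strong regions on X, the lowest of the 23 chromosomes in each list. Over all X regions the median fold was not low, at 10.7 and 11.9 against 9.77 and 11.2 over the regions of all chromosomes. In each list X had the highest share of strong peaks, 54.3% and 47.3%. The part of the lower control in these values was not tested. X peaks recurred most often, at 94.3% of replicate 1 and 81.3% of replicate 2.

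**Figure D5:**
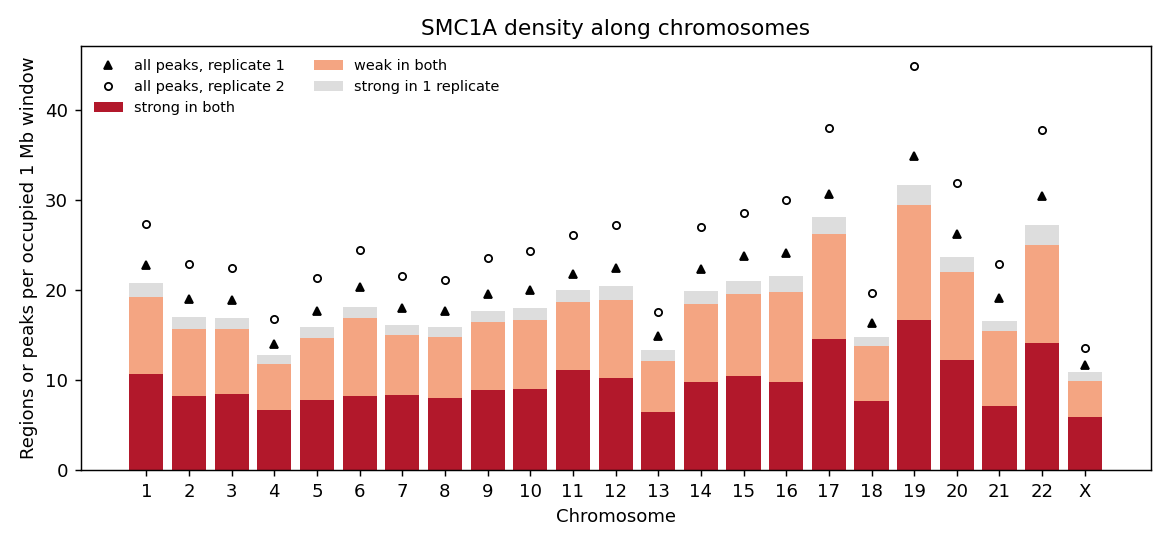
SMC1A regions per occupied 1 Mb window on each chromosome, stacked as strong in both, weak in both and strong in 1 replicate, with all peaks of each list as black symbols. Chromosome 19 is highest with 31.7 regions per window and chromosome X lowest with 10.9, and the strong share of the bars lies between 43.2% and 55.6%.

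Single windows also differed in SMC1A density. They had a median of 16 regions, with quartiles of 8 and 25 and a maximum of 67, and 17 of the 2834 held no region. Counts of replicate 1 and replicate 2 peaks had Pearson r = 0.982 and Spearman rho = 0.985 over the windows, and counts of strong and weak regions had r = 0.569 and rho = 0.691. Both are descriptions over windows that share libraries and chromosomes. Weak regions were the more concentrated by this count. The tenth of windows richest in them held 31.9% of weak regions, against 23.8% of strong regions in the tenth richest in strong ones.

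The 5 densest windows show how far the makeup could differ at like density. Regions numbered 67 in the first Mb of chromosome 6, 67 in the Mb from 76000001 on chromosome 17, 67 in that from 1000001 on chromosome 19, 66 in that from 42000001 on chromosome 19 and 65 in that from 65000001 on chromosome 11. In the chromosome 6 window 7 of the 67 regions were strong in both lists and 57 weak in both, and 44.8% met NIPBL and 59.7% MED1. In the second chromosome 19 window 33 of 66 were strong in both, and 21.2% met NIPBL and 19.7% MED1. The chromosome 6 window also had the highest number of weak regions of all 2834.

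Shares of recurring peaks in the full lists overlapped between SMC1A and the other factors. Found in the other replicate were 92.0% and 75.6% of SMC1A peaks, 55.6% and 79.3% of NIPBL peaks and 98.99% and 33.5% of MED1 peaks. The mean was 83.8% ± 11.6 (SD, n = 2) for SMC1A and 66.9% ± 28.4 (SD, n = 4) for the others, a difference of 17.0 percentage points within the spread between libraries (two-sided exact permutation p = 0.667, adjusted p = 0.800). Both shares of a factor describe the same overlap between its lists, so they are not independent values. The SDs and p-values for recurrence count them as separate libraries and cannot measure a spread between independent ones. The shares also depend on list length, with 18131 and 45046 peaks in the MED1 lists. With all 6 lists cut to one length by −log10 p the difference was 18.9 points, at the smallest p the design allows (exact permutation p = 0.133).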

How the data were processed

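Peak lists of 6 ChIP libraries were used. Per the submitters' processing notes, Trimmomatic 0.33, BWA 0.7.12, MACS2 2.1.0 and the build hg19 were used. No source used here gives their settings. Per the labels, each ChIP library had its own peak list, with the pooled whole cell extracts as input. Fold enrichment was deposited as a linear ratio at the summit. The deposited −log10 p and −log10 q give the evidence there, with a smallest −log10 q of 1.302, and the deposited score repeats the latter and was not used. No read totals were used. Chromosomes 1 to 22 and X were kept.

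Pileup and control estimate were solved from fold and p for every peak, to within 0.001 in −log10 p. In 73.0% and 70.5% of SMC1A peaks the control estimate was a whole multiple of 0.470 and 0.464, the weight of 1 control fragment (tolerance 0.005 fragments). It rested there on a median of 10 fragments, which limits the precision of a single fold. Strong and weak peaks were divided at the lowest kernel density of log2 fold between the 2 highest maxima. Libraries were compared by exact permutation tests with Benjamini-Hochberg adjustment over 4 measures. Python 3.11.15, numpy 2.4.6, pandas 2.3.3 and scipy 1.17.1 were used, and the steps were tested on simulated data.

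Named regions were the 10 strongest by mean percentile of fold, the 5 widest, the 3 strongest peaks of each list without a counterpart, the 5 longest gaps, the 5 densest windows and the 3 strongest regions with summits over 200 bp apart. The members, lists and tests were chosen with earlier results of these data known. The NIPBL and MED1 regions were those found in both of their replicates.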

Additional observations from a re-analysis of the deposited data

Results flagged for a closer look

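SMC1A peaks were also listed on sequences that entered no comparison, 53 in replicate 1 and 57 in replicate 2, on unplaced or unlocalised contigs (43 and 46), alternative haplotypes (5 and 6) and the mitochondrial genome (5 in each). They were noted because a count of 0 would allow no more than 3. Chromosome Y was left out of these counts. Their median fold was 5.83 and 5.07 and the highest was 54.5 and 49.9. The NIPBL lists held 39 and 12 such peaks and the MED1 lists 29 and 37.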

How the results depend on the processing

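Of 78 recomputed values, 50 were labelled unchanged, 22 moved and 6 reversed direction. Unchanged values stayed within the replicate spread, the interval or the direction of the value reported. The number of regions was held to a looser band instead, and ran from 46216 to 50268 against 51020. Differences under a replicate block, described below, are among the 50 though they could not change. With a −log10 q of at least 5, recurrence was 93.2% of replicate 1 and 79.1% of replicate 2 peaks, regions strong in both were 55.5%, the median summit distance was 15 bp and the median gap 28145 bp. With equal numbers of top peaks, recurrence was 86.8% and 85.7%. With a reciprocal overlap of 50% it was 86.0% and 71.2% and the median region width 408 bp. With summits at most 200 bp apart it was 89.0% and 73.7%. The share strong in both was 59.7% with a 2-component normal mixture, which put the division at folds of 7.19 and 7.40, and 37.7% with pileup in place of fold. Bandwidths of 0.1 and 0.3 gave 49.5% and 48.8%. At a bandwidth of 0.1 the NIPBL replicate 1 list and both MED1 lists showed further maxima, none above 0.0800% of the main one in density, and each SMC1A list showed 3 maxima. The density ratio of chromosomes was 2.06 in windows of 100 kb. With either SMC1A list alone the share strong was 41.0% to 48.2%, the median width 348 to 354 bp, the median gap 15687 to 20877 bp and the density ratio 2.97 to 3.31. These are values of the peaks of a list, and the values reported are of merged regions found in both. The 2 are unlike measures, though they entered the 78. The cause of these shifts was not tested.

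Against the other factors, the difference in median fold was 3.38 to 4.47 without 1 library, 5.05 with the stricter q and 17.6 with equal numbers of top peaks. The difference in width turned to -37.8 bp with the stricter q (exact permutation p = 0.400) and ranged from -11.3 to 24.7 bp without 1 library. The difference in spacing turned to -911 bp with the stricter q (exact permutation p = 0.800) and was 63166 bp with lists of equal length (exact permutation p = 0.133) and 640 to 5855 bp without 1 library. Recurrence could not be recomputed without a library, since it needs both lists. The labels give replicate numbers but no shared source, and same-numbered libraries did not deviate together (r = 0.0491 between SMC1A and NIPBL and -0.0405 between SMC1A and MED1, over 2834 windows). The difference in recurrence was 19.4 points with the stricter q (exact permutation p = 0.667) and 18.9 points with lists of equal length (exact permutation p = 0.133, the smallest the design allows). These p-values, and that for recurrence in the block below, treat both directions of the same overlap as separate libraries. A replicate block, which permutes within replicate number, can change only the p-value and leaves the differences as they were by construction. These were 3.92 in fold, 1.5 bp in width, 3235 bp in spacing and 17.0 points in recurrence. Within the block they had exact permutation p = 0.222, 0.889, 0.889 and 0.889, where 0.222 is the smallest possible. Fragment pileups under 8 and 7 were not detectable in replicates 1 and 2, and the floor was higher where the local control estimate was high.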
